A study of Homo sapiens with 4 samples.

Results

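Immune miRNAs were examined in HCT116 cells, an established epithelial line from a human colon carcinoma. They comprise hsa-miR-146a-5p, hsa-miR-146b-5p, hsa-miR-146b-3p, hsa-miR-155-5p, hsa-miR-150-5p and hsa-miR-223-3p, 6 of the 1644 miRNA names in the count table, chosen by name as miRNAs known mostly from blood cells. miR-142 was left out because a transfected plasmid encoded it. The cells were transfected with 1 of 4 plasmid mixtures in the pcDNA3 vector, and small RNA was sequenced in 1 library per mixture. The empty vector library received only the empty plasmid. The wild-type library received plasmids for a set of pri-miRNAs, the stem-loop precursors that DROSHA cuts, together with pri-mir-16-1. The mutant 1 library received variants of those pri-miRNAs in which mismatches or wobble pairs of the upper stem were added or, for some, removed, again with pri-mir-16-1, and the mutant 2 library received a mutant pri-mir-342, pri-mir-16-1 and empty plasmid. No plasmid encoded any of the 6 miRNAs.

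A miRNA is cut from a hairpin by DROSHA and DICER, and its seed, bases 2 to 8 from the 5′ end, sets most of its targeting. miR-146a is induced by NF-kB signaling and represses the adaptors IRAK1 and TRAF6 in a negative feedback loop. The 5p arm of miR-146b has the same seed as that of miR-146a. miR-155 is induced in activated lymphocytes and macrophages, miR-150 is abundant in mature lymphocytes, where it targets MYB, and miR-223 is abundant in granulocytes and other myeloid cells.

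The mature sequences are shown because the 6 miRNAs are told apart by their bases and because the seed depends on the exact 5′ end. RefSeq (GRCh38.p14) held 5 of the 6. The seed is in capitals in each of them, written 5′ to 3′.
hsa-miR-146a-5p: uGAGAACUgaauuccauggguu
hsa-miR-146b-5p: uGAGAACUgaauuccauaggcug
hsa-miR-146b-3p: gCCCUGUGgacucaguucuggu
hsa-miR-155-5p: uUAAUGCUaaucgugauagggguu
hsa-miR-223-3p: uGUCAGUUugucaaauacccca

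hsa-miR-146a-5p and hsa-miR-146b-5p share the seed GAGAACU. Over their 22 shared positions, counted from 1 at the 5′ end, they differ by G18A and U21C (the base of hsa-miR-146a-5p first). Each other seed shown belongs to 1 member. hsa-miR-7153-5p also has the seed GAGAACU and had no reads listed. The genes of these 5 miRNAs lie on 4 chromosomes. MIR146A is at chr5:160485352-160485450 in exon 2 of the long noncoding RNA MIR3142HG, and MIR146B is at chr10:102436512-102436584 in no host gene. MIR155 is at chr21:25573980-25574044 in exon 4 of MIR155HG, and MIR223 is at chrX:66018870-66018979 in exon 3 of MIR223HG. All 4 are on the plus strand (GENCODE 44, canonical transcripts).

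The libraries held between 14544516 and 19834361 miRNA reads. Reads of miRNAs that no plasmid encoded, 1608 names, were between 12241852 and 15134221, or 70.5% to 92.0% of each library. Levels are given as RPM, reads per 1000000 of these untransfected miRNA reads. Since each condition had 1 library, no test between conditions was possible. The 95% intervals cover counting error only, not differences between transfections, and PCR copies of reads were not separated by molecular identifiers. All 10 miRNAs of an epithelial list had more than 3 reads in every library, but 53.0% of the 1608 names did too, so this count alone does not check the label of the cells.

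hsa-miR-146b-5p was the only abundant member. It had 25801 reads with the empty vector, 19525 with the wild-type mixture, 25242 with mutant 1 and 24940 with mutant 2. These reads came to 1928, 1595, 1800 and 1648 RPM, and placed it between rank 45 and rank 51 of the untransfected miRNAs. It supplied 99.3% to 99.4% of the reads of the 6 members. The 6 members together made up 0.161% to 0.194% of the untransfected miRNA reads.

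The other arm of the same hairpin, hsa-miR-146b-3p, had 71, 54, 89 and 67 reads in the empty vector, wild-type, mutant 1 and mutant 2 libraries. hsa-miR-146a-5p, the seed partner of hsa-miR-146b-5p, had 72, 43, 45 and 46 reads in the same order. Both were thus low but present in every library, at 4.41 to 6.34 RPM for hsa-miR-146b-3p and 3.04 to 5.38 RPM for hsa-miR-146a-5p. The lymphocyte miRNA hsa-miR-150-5p had 23, 23, 15 and 22 reads, between 1.07 and 1.88 RPM. The myeloid miRNA hsa-miR-223-3p had 22, 7, 24 and 28 reads, between 0.572 and 1.85 RPM. The wild-type library was the low one for hsa-miR-223-3p, while the other 3 libraries lay close together.

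hsa-miR-155-5p had 1 read in all 4 libraries, in the mutant 1 library. A count of 0 allows up to 3 reads, a level of up to 0.224 RPM with the empty vector, 0.245 RPM with the wild-type mixture and 0.198 RPM with mutant 2. The 95% exact Poisson interval reaches 0.276, 0.301 and 0.244 RPM in these libraries. The level of hsa-miR-155-5p was therefore not measurable at this depth. The other 5 members exceeded 3 reads in every library, as did 53.0% of the 1608 untransfected names. In bulk RNA, a few cells with much of a miRNA and many cells with little of it cannot be told apart.

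**Figure D1:**
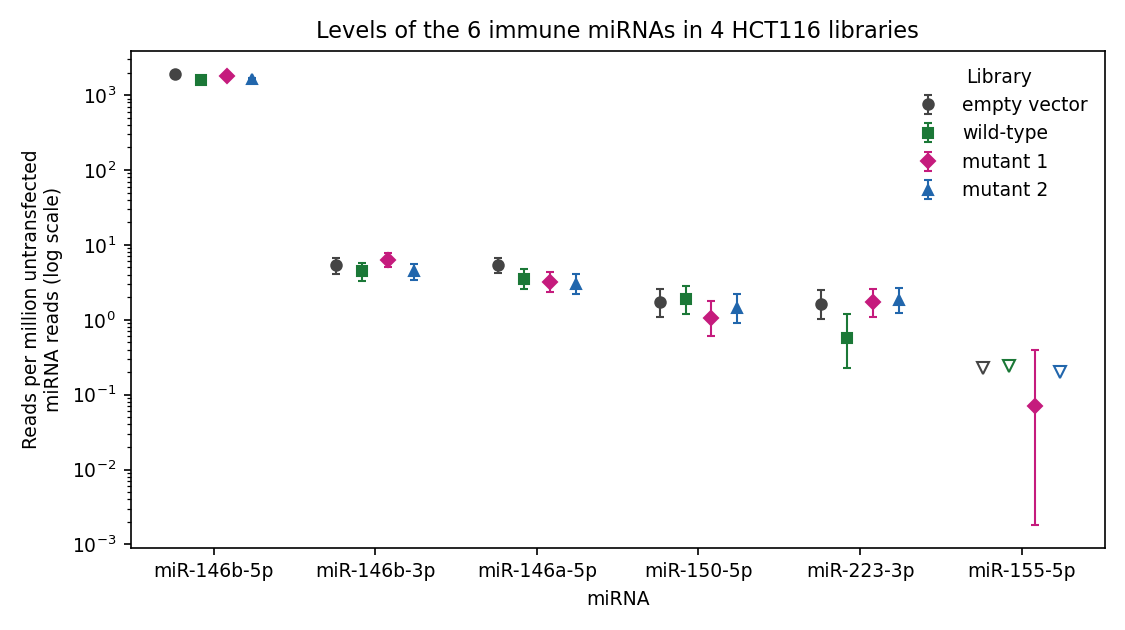
Level of each member in each library, in RPM of untransfected miRNA reads on a log axis. Points are single libraries, bars are 95% exact Poisson intervals, and open triangles mark the level that 3 reads would give where no read was listed. hsa-miR-146b-5p lies between 1595 and 1928 RPM and every other member lies at or below 6.34 RPM.

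The order of the levels was hsa-miR-146b-5p, hsa-miR-146b-3p, hsa-miR-146a-5p, hsa-miR-150-5p, hsa-miR-223-3p and hsa-miR-155-5p by the mean of the 4 libraries. Several neighbors in this order were not separated. hsa-miR-146b-3p was above hsa-miR-146a-5p beyond counting error only in the mutant 1 library, by 1.98-fold (interval 1.37 to 2.90). hsa-miR-150-5p was above hsa-miR-223-3p beyond counting error only in the wild-type library, by 3.29-fold (1.36 to 9.07). In contrast, hsa-miR-146a-5p exceeded hsa-miR-150-5p in all 4 libraries, by 1.87-fold to 3.13-fold. hsa-miR-223-3p also exceeded hsa-miR-155-5p beyond counting error in all 4.

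The members with the GAGAACU seed were almost all of 1 kind. The ratio of hsa-miR-146b-5p to hsa-miR-146a-5p was 358 (interval 284 to 458) with the empty vector and 454 (337 to 628) with the wild-type mixture. It was 561 (419 to 769) with mutant 1 and 542 (406 to 741) with mutant 2. All listed reads of both miRNAs extend past the first differing base. Thus hsa-miR-146a-5p supplied 0.178% to 0.278% of the reads of the pair, in each library a small minority.

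By mean level, hsa-miR-146b-5p was rank 49 of 1608, hsa-miR-146b-3p rank 436, hsa-miR-146a-5p rank 472, hsa-miR-150-5p rank 622 and hsa-miR-223-3p rank 628. The neighbors of hsa-miR-146b-5p were hsa-miR-425-5p above it at 1847 RPM and hsa-miR-200a-3p, an epithelial miRNA, below it at 1660 RPM. The other members sat among miRNAs of few reads. hsa-miR-146b-3p fell between hsa-miR-103a-2-5p and hsa-miR-197-5p, and hsa-miR-146a-5p between hsa-miR-592 and hsa-miR-548s. hsa-miR-150-5p fell between hsa-miR-3691-3p and hsa-miR-588, and hsa-miR-223-3p between hsa-miR-6868-3p and hsa-miR-3115. hsa-miR-155-5p was tied with hsa-miR-450b-3p and hsa-miR-4733-3p at 1 read.

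**Figure D2:**
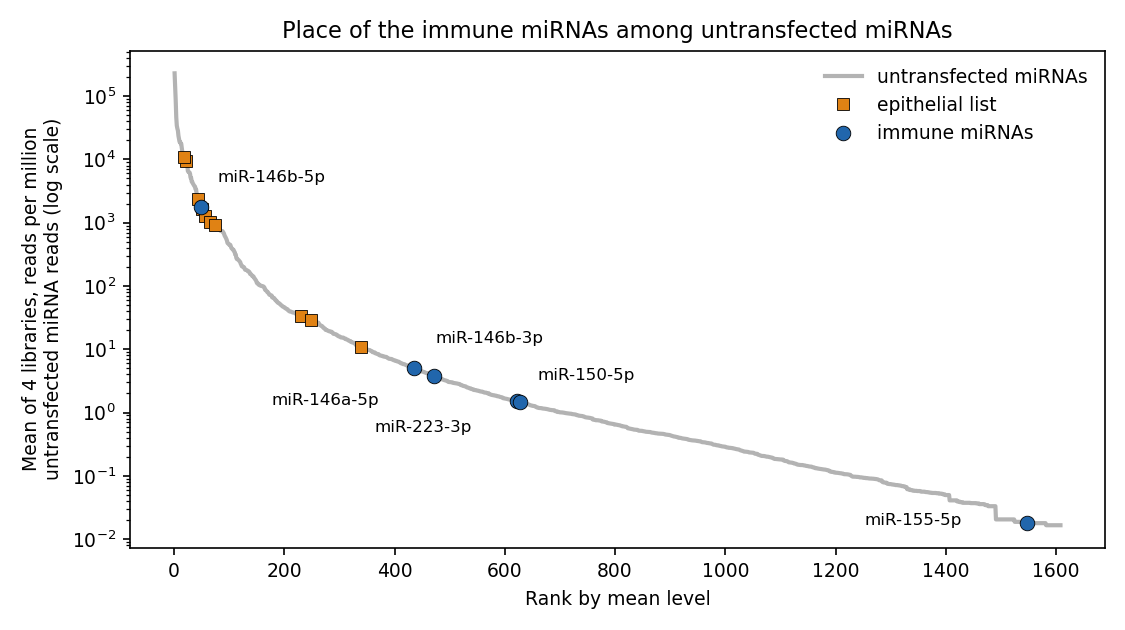
Mean level over the 4 libraries against rank for the 1608 untransfected miRNAs (gray line, log axis), with the 6 immune miRNAs as blue circles and 10 epithelial miRNAs as orange squares. hsa-miR-146b-5p lies among the epithelial miRNAs at 1743 RPM, and the other 5 immune miRNAs lie below all 10 of them, with hsa-miR-155-5p among names tied at 1 read.

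Lists of miRNAs known from other lineages were set beside the members. The study kept unambiguous reads, and whether this left some list members without reads was not tested. The 10 epithelial miRNAs summed to 25967 to 29280 RPM, led by hsa-miR-141-3p (mean 11108 RPM) and hsa-miR-200c-3p (mean 9290 RPM), which repress the mesenchymal regulators ZEB1 and ZEB2. This sum was 14.3-fold to 18.2-fold the sum of the 6 immune miRNAs. Without hsa-miR-146b-5p, it was 2015-fold to 2822-fold. The median epithelial miRNA lay at 1100 to 1197 RPM and the median immune miRNA at 2.44 to 3.51 RPM.

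Of 5 miRNAs of erythroid and other blood cells, 2 exceeded 3 reads in every library, and the list summed to 11.7 to 15.1 RPM. The highest were hsa-miR-486-5p (mean 10.1 RPM) and hsa-miR-451a (mean 2.27 RPM), both erythroid miRNAs, and hsa-miR-650 had no reads. By mean level, hsa-miR-146a-5p and hsa-miR-146b-3p lay between these 2 erythroid miRNAs, and hsa-miR-150-5p and hsa-miR-223-3p lay below both. The liver miRNA hsa-miR-122-5p was also listed, at 0.570 to 1.23 RPM, which overlapped the range of hsa-miR-223-3p. Whether such levels come from HCT116 cells or from other RNA in the libraries was not tested.

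The remaining lists were uneven. Of 7 muscle miRNAs, 1 exceeded 3 reads in every library (hsa-miR-499a-5p, mean 2.83 RPM), the next was hsa-miR-208b-3p (mean 0.0865 RPM) and 4 had no reads. Of 5 neural miRNAs, only hsa-miR-219a-5p was listed (mean 33.7 RPM), and 4 had no reads. Of 5 mesenchymal miRNAs, 2 exceeded 3 reads in every library, hsa-miR-145-5p (mean 205 RPM) and hsa-miR-143-3p (mean 176 RPM). Both endothelial miRNAs were present, with hsa-miR-126-5p at a mean of 4194 RPM and hsa-miR-126-3p at 262 RPM. The level of hsa-miR-126-5p was higher than that of any immune miRNA. All 6 inflammation-linked miRNAs exceeded 3 reads in every library. Their sum of 214230 to 247301 RPM was nearly all hsa-miR-21-5p (mean 229693 RPM), and hsa-miR-132-3p, another miRNA induced in immune responses, was next (mean 104 RPM).

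The 3 libraries that received pri-miRNA plasmids were then compared with the empty vector library, which was itself transfected, so the comparisons are between plasmid mixtures. Reads were scaled by untransfected miRNA reads, and 3 of the 6 members had the mean of at least 50 reads set for this comparison. hsa-miR-146a-5p lay at 5.38 RPM in the empty vector library and at 3.51, 3.21 and 3.04 RPM in the wild-type, mutant 1 and mutant 2 libraries. The ratios were 0.653 (interval 0.437 to 0.966), 0.596 (0.401 to 0.877) and 0.565 (0.381 to 0.829), or -0.62, -0.75 and -0.82 on the log2 scale. All 3 plasmid libraries were below the empty vector library, which is 1 shared control of 72 reads, so the ratios are not independent.

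These differences were compared with the scatter of other untransfected miRNAs. Among 89 miRNAs with a mean of 50 to 100 reads, 78.7%, 85.4% and 91.0% differed less from the empty vector library than hsa-miR-146a-5p did, in the same order of libraries. The SD of the log2 ratio over those 89 was 0.45, 0.56 and 0.44. The differences of hsa-miR-146a-5p were therefore 1.34 to 1.86 of these SDs, and no replicate library was present to place it further.

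hsa-miR-146b-5p had log2 ratios of -0.27, -0.10 and -0.23 over the empty vector library, the second of which became 0.024 with TMM scaling, another estimate of library size. Its counting intervals exclude 0 because of its many reads, but the SD over the 476 miRNAs that reached this mean was 0.40, 0.50 and 0.36 in the 3 comparisons. Scaled by untransfected miRNA reads, the changes of hsa-miR-146b-5p were thus smaller than this SD in all 3. So they were against the 311 miRNAs averaging 200 reads or more (SD 0.30, 0.45 and 0.30). The wild-type change passed that 0.30 with TMM (-0.39), DESeq2 (-0.37) and all miRNA reads (-0.66). Mutant 1 passed its 0.45 by all miRNA reads (-0.48), and the remaining changes with these 3 scalings stayed below their SDs. By hsa-miR-16-5p, all 3 changes passed (-1.31, -1.15 and -1.52). hsa-miR-146b-3p had log2 ratios of -0.27, 0.26 and -0.26, each interval included 0, and the second became -0.12 by all miRNA reads and -0.79 by hsa-miR-16-5p. Between mutant 1 and wild-type, the log2 ratios were 0.17 for hsa-miR-146b-5p, 0.52 (interval 0.02 to 1.04) for hsa-miR-146b-3p and -0.13 (interval -0.77 to 0.51) for hsa-miR-146a-5p. The SD over the 476 miRNAs was 0.41, and over the 89 with 50 to 100 reads, which include both low members, it was 0.54, with 65.2% of them differing less than hsa-miR-146b-3p. That of hsa-miR-146a-5p turned to 0.11 with TMM and 0.06 with DESeq2.

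None of the 3 members differed by more than 2-fold in any comparison. Beside this count, 1.89% of the 476 miRNAs differed by more than 2-fold between wild-type and empty vector, 3.99% between mutant 1 and empty vector, 1.68% between mutant 2 and empty vector and 2.31% between mutant 1 and wild-type. With so few calls in the background, 0 of 3 does not set the members apart. The count held with TMM and DESeq2 scaling but not with the others. Scaled by all miRNA reads, hsa-miR-146a-5p passed 2-fold in mutant 1 over empty vector (log2 ratio -1.13), where 52 of the 476 miRNAs did. Scaled by hsa-miR-16-5p, 3, 2 and 3 of the 3 members lay past 2-fold below the empty vector in wild-type, mutant 1 and mutant 2. So did 208, 272 and 375 of the 476 miRNAs, so these counts do not set the members apart either. The normalizer used in the original work was hsa-miR-16-5p, whose precursor was also in the plasmid mixtures.

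The direction of the background calls also depended on the scaling. Between wild-type and empty vector 8 were higher and 1 lower, against 6 and 3 with TMM, 1 and 6 by all miRNA reads and 0 and 208 by hsa-miR-16-5p. Between mutant 1 and empty vector 9 were higher and 10 lower, against 15 and 5, 1 and 51, and 0 and 272. Between mutant 2 and empty vector 5 were higher and 3 lower, against 5 and 3, 4 and 3, and 0 and 375. Between mutant 1 and wild-type 1 was higher and 10 lower, against 8 and 6, 1 and 10, and 1 and 11.

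hsa-miR-150-5p and hsa-miR-223-3p had means of 20.8 and 20.2 reads. For hsa-miR-223-3p, 7 reads in the wild-type library against 22 with the empty vector gave a ratio of 0.348 (interval 0.125 to 0.843), and mutant 1 over wild-type gave 2.99 (1.25 to 8.22). Both ratios rest on the 7 reads of the wild-type library. At a minimum mean of 10 reads, 8.24% of 777 miRNAs differed by more than 2-fold between wild-type and empty vector and 9.52% between mutant 1 and wild-type. hsa-miR-150-5p lay within 2-fold in all 4 comparisons with this scaling, at ratios of 0.569 to 1.09 and with intervals that all included 1. Its log2 ratio of mutant 1 over empty vector was -0.68, against -1.06 by all miRNA reads and -1.74 by hsa-miR-16-5p, and that of mutant 2 was -0.24, against -1.54 by hsa-miR-16-5p. That of wild-type was 0.13, and turned to -0.26 by all miRNA reads and to -0.91 by hsa-miR-16-5p. For hsa-miR-223-3p, mutant 1 and mutant 2 over empty vector were 0.06 and 0.17, and turned to -0.99 and -1.12 by hsa-miR-16-5p, with the first at -0.32 by all miRNA reads.

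**Figure D3:**
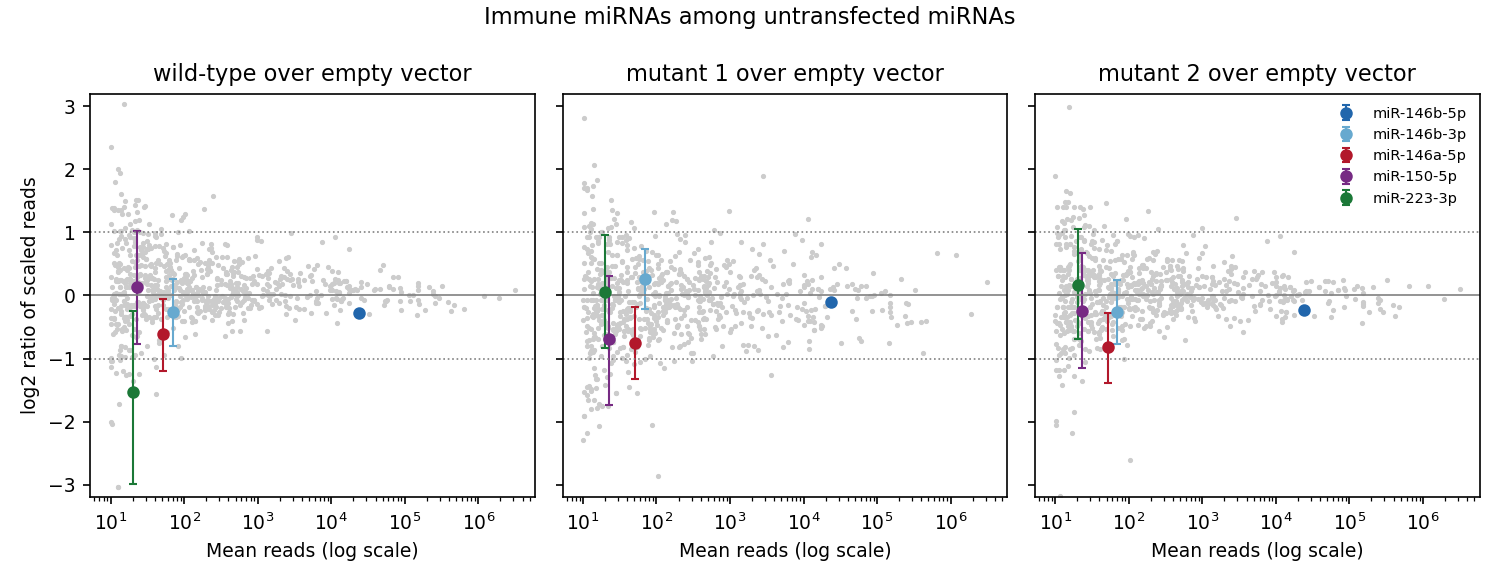
The log2 ratio of scaled reads over the empty vector library against mean reads (log axis) for untransfected miRNAs that average 10 reads or more (gray), in 3 panels for the wild-type, mutant 1 and mutant 2 libraries. Colored points are the members with their 95% counting intervals, dotted lines mark 2-fold, and miRNAs beyond the plotted range are not drawn. hsa-miR-146a-5p lies at -0.62, -0.75 and -0.82, and hsa-miR-223-3p passes the dotted line only in the wild-type panel with this scaling.

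Likeness in profile over the 4 libraries was described for the 3 members with a mean of at least 50 reads, as the root mean square distance between centered log2 levels. The nearest to hsa-miR-146b-5p were hsa-miR-6842-3p (0.0386), hsa-miR-3929 (0.0388) and hsa-miR-1301-3p (0.0424). The nearest to hsa-miR-146a-5p were hsa-miR-411-5p (0.124), hsa-miR-145-3p (0.135) and hsa-miR-3157-3p (0.137). Those of hsa-miR-146b-3p were hsa-miR-3065-5p and hsa-miR-338-3p, at the same distance of 0.0696 and the same mean level, and hsa-miR-4766-3p (0.0945). Whether hsa-miR-3065-5p and hsa-miR-338-3p list the same reads was not tested. The median distance to all others was 0.227, 0.366 and 0.317 for hsa-miR-146b-5p, hsa-miR-146a-5p and hsa-miR-146b-3p. Each profile has only 4 points, all scaled by the same library totals.

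The ends of the reads were then examined, since a shifted start gives another seed. The table gives each read's start and end as offsets from the annotated ends. With a positive 3p offset read as a shorter molecule, all 10981 isoforms with a RefSeq length came out between 18 and 26 nt, the range of lengths kept by the study. With the opposite reading, lengths ran from 11 to 34 nt. The first reading was used.

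hsa-miR-146b-5p began at its annotated start in 98.9% to 99.1% of reads, so its seed was nearly uniform. Its end was not the annotated one. The most frequent molecule was 24 nt long, 1 nt longer at the 3p end than the annotated form of 23 nt.
annotated: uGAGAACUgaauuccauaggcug
most frequent: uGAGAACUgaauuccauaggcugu

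The longer form made up 88.6% of reads with the empty vector, 88.0% with the wild-type mixture, 90.4% with mutant 1 and 89.0% with mutant 2. The annotated form made up 9.47%, 9.86%, 7.99% and 9.21%. The longer form was thus the main one in all 4 libraries, and the shares moved by under 3 percentage points. Among the 476 miRNAs, 41.8% had a most frequent 3p end away from the annotated one in the empty vector library, and in 15.8% it was 1 nt longer. The longer end of hsa-miR-146b-5p is therefore of a common kind.

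The rare starts of hsa-miR-146b-5p kept the same end. Of 345 reads that began 1 nt upstream, 95.7% (Wilson interval 93.0 to 97.3) had the end that is 1 nt longer. Of 578 reads that began 1 nt downstream, 96.7% (94.9 to 97.9) had it. Of 94536 reads at the annotated start, 90.0% (89.8 to 90.2) had it. The same end was thus the main one for all 3 starts, and the share was somewhat higher in reads that began off the annotated start.

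hsa-miR-146a-5p had another length profile than its seed partner. Over the 4 libraries, 74.8% of its 206 reads were the annotated 22 nt and 2.43% were 24 nt. For hsa-miR-146b-5p, 0.618% of 95508 reads were 22 nt and 89.1% were 24 nt. The 2 miRNAs that share a seed thus differed in their usual length by 2 nt. The start of hsa-miR-146a-5p was the annotated one in 95.7% to 100% of reads and its end in 64.4% to 88.4%.

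hsa-miR-223-3p was split between 2 ends. Over the 4 libraries, 36 reads began at the annotated start and were 1 nt longer than annotated (23 nt), and 28 reads were the annotated 22 nt form.
annotated: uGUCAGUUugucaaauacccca
1 nt longer: uGUCAGUUugucaaauaccccaa

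The annotated form was the more frequent with 4 of 7 reads in the wild-type library, and the longer form in the mutant 1 and mutant 2 libraries, with 11 of 24 and 16 of 28 reads. With the empty vector, 9 of 22 reads were the annotated form. These differences lay within overlapping Wilson intervals. hsa-miR-150-5p began at its annotated start in 86.4% to 100% of reads, and the annotated form was its most frequent in each library, with 21 of 23, 14 of 23, 11 of 15 and 13 of 22 reads. The 1 read of hsa-miR-155-5p began at the annotated start and was 23 nt long, 1 nt shorter than annotated.

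hsa-miR-146b-3p was the member whose listed start differed from the annotated one. Of its 281 reads, 277 began 1 nt upstream, or 98.6% (Wilson interval 96.4 to 99.4), and this start was the main one in each library. The most frequent molecule, with 214 reads, was 23 nt long. Its seed reads GCCCUGU in place of the annotated CCCUGUG.
annotated: gCCCUGUGgacucaguucuggu
most frequent: uGCCCUGUggacucaguucuggu

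In the empty vector library, 13.0% of the 476 miRNAs had a most frequent start away from the annotated one, and the median share of reads at the annotated start was 95.7%. The start of hsa-miR-146b-3p therefore belonged to a minority, but its value depends on which reads were kept. The annotated 22 nt sequence matches the genome at chr10:102436557-102436578, within MIR146B, and also at chr9:93964960-93964981 on the plus strand, where GENCODE lists no gene. Reads that begin 1 nt upstream match only MIR146B. Reads that begin at the annotated start, or 1 nt after it, match both places when they end at or before the annotated end. The study's methods state that unambiguous reads were kept. Reads of 49 listed miRNAs that RefSeq places at several loci, hsa-miR-16-5p with 2 loci among them, are nonetheless in the table, so how ambiguity was judged is not known here.

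No read was listed for any of the forms with 2 matches. Where the hairpin sequence runs past the annotated end, each of the 3 starts matches once, and 6 reads of such length were listed. Whether these 6 reads carried the last base of the hairpin sequence was not tested. Of these, 2 began 1 nt upstream, 1 at the annotated start and 3 at 1 nt downstream. The share of the upstream start was thus 33.3% (exact Clopper-Pearson interval 4.33 to 77.7) in these 6 reads, against 275 of 275 in the others. Whether reads of hsa-miR-146b-3p were removed by the second match was not tested, and its level of 4.41 to 6.34 RPM counts only the listed forms.

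**Figure D4:**
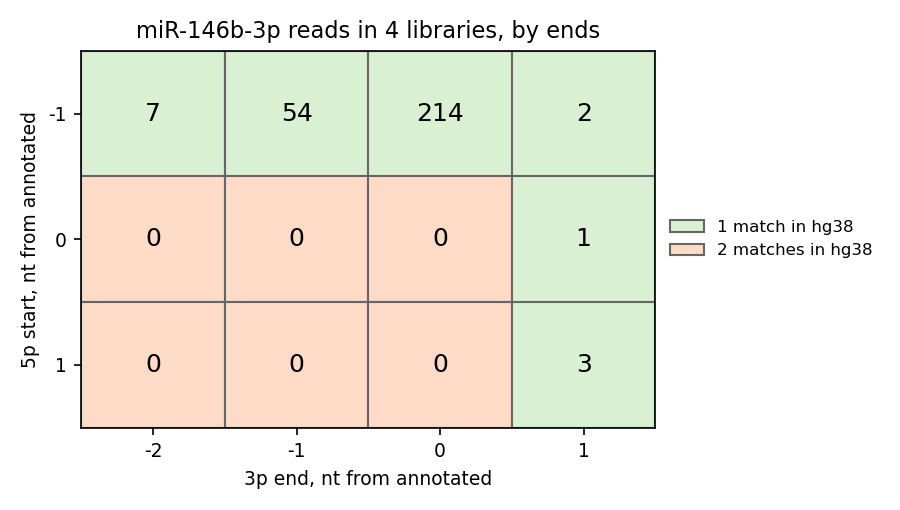
Reads of hsa-miR-146b-3p summed over 4 libraries by 5p start (rows) and 3p end (columns), in nt from the annotated ends with negative upstream. Green cells are forms that match the hg38 genome once and orange cells are forms with 2 matches. The 214 reads of the main form sit in the row of the upstream start, and all orange cells hold 0 reads.

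The hairpin of MIR146B places the most frequent molecule of each arm, in capitals below, in the RefSeq precursor of 73 nt.
MIR146B: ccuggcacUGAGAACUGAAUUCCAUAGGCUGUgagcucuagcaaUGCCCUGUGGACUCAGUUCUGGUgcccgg

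Between the annotated arms lie 14 bases of the loop, and between the most frequent reads 12, because the 5p molecule was 1 nt longer at its 3p end and the 3p molecule 1 nt longer at its 5p end. Both of these ends are the loop side of the hairpin, where DICER cuts. The other end of each molecule was the annotated one, at the side where DROSHA cuts. The limit on the start of hsa-miR-146b-3p given above applies to the 3p side of this comparison. The limit on added 3p bases applies to the 5p side.

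The balance of the arms was strongly toward the 5p arm for miR-146b. hsa-miR-146b-3p supplied 0.274% of the hairpin's reads with the empty vector, 0.276% with the wild-type mixture, 0.351% with mutant 1 and 0.268% with mutant 2, and the exact intervals overlapped. This is 284 to 372 reads of the 5p arm per read of the 3p arm, counting listed forms only. For miR-146a, no read of hsa-miR-146a-3p was listed beside 206 reads of hsa-miR-146a-5p, a share of 0% with an exact upper limit of 1.77% over the 4 libraries. The passenger arm of miR-146a was thus not detectable at this depth. hsa-miR-155-3p also had no reads.

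hsa-miR-150-3p had 0, 4, 5 and 8 reads in the empty vector, wild-type, mutant 1 and mutant 2 libraries, beside 23, 23, 15 and 22 of hsa-miR-150-5p. It supplied 17.0% (exact interval 10.2 to 25.8) of the reads of both arms. hsa-miR-223-5p had 1, 1, 0 and 3 reads, or 5.81% (1.91 to 13.0) of the reads of both arms of miR-223. The arms of these 2 hairpins were less one-sided in the listed reads than those of miR-146b, but each share rests on few reads.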

How the data were processed

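Small RNA of transfected HCT116 cells was sequenced in 4 libraries, 1 per plasmid mixture, from TruSeq small RNA kits. The authors trimmed adapters with cutadapt, kept reads of 18 to 26 nt that passed a quality filter, aligned them to hg38 with Bowtie2 and assigned unambiguous reads with mismatches only at the 3p end to miRBase loci. The deposited values are raw counts of reads per isoform (12689 isoforms), without normalization. A second deposited file gives plasmid sequences, and miRNAs encoded there were set aside.

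Counts were summed per miRNA and divided by untransfected miRNA reads. Poisson, Wilson, Clopper-Pearson and conditional binomial intervals (95%) were computed with scipy 1.17.1, and a count of 3 or fewer was treated as the floor. The calls were checked on simulated data with counting error only, which does not cover differences between transfections. Scaling by all miRNA reads, by miR-16-5p, by edgeR 4.0.16 (TMM) or by DESeq2 1.42.0 (size factors, R 4.3.3), other minimum counts and other folds were alternatives. Sequences came from RefSeq and annotation from GENCODE 44.

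The members, lists and rules were chosen with earlier results of these data known. Named besides the members were their partner arms, the 2 highest miRNAs of each list (and list members without reads), neighbors in level, the 3 nearest profiles and sharers of a seed.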

Additional observations from a re-analysis of the deposited data

How the results depend on the processing

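No paired analysis was possible because each condition had 1 library. Scaling moved the ratios most. With hsa-miR-16-5p, whose precursor was in 3 of the mixtures, the median log2 ratio of the 476 miRNAs over the empty vector was -0.95, -1.07 and -1.23 (wild-type, mutant 1, mutant 2). The members' ratios were then -1.65, -1.80 and -2.12 for hsa-miR-146a-5p, -1.31, -1.15 and -1.52 for hsa-miR-146b-5p and -1.30, -0.79 and -1.56 for hsa-miR-146b-3p, so the direction of hsa-miR-146b-3p in mutant 1 turned, as it did by all miRNA reads (-0.12). By all miRNA reads, hsa-miR-146b-5p was at -0.66, -0.48 and -0.29. It was at -0.39, 0.024 and -0.27 with TMM and at -0.37, 0.00033 and -0.26 with DESeq2, where mutant 1 did not keep its sign, and mutant 1 over wild-type was 0.41 and 0.37. hsa-miR-146a-5p was lower than in the empty vector library under every scaling run.

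Counts of untransfected miRNAs past the fold are given for the same 3 comparisons and then mutant 1 over wild-type. They were 64, 83, 53 and 74 of 777 at a minimum mean of 10 reads and 1, 6, 3 and 1 of 311 at 200 reads. At 1.5-fold they were 52, 101, 45 and 75 of 476. Over the empty vector they were 208, 272 and 375 of 476 with hsa-miR-16-5p and 52 of 476 for mutant 1 with all miRNA reads. Members past the fold numbered 1 for wild-type over empty vector and 1 for mutant 1 over wild-type at 10 reads (hsa-miR-223-3p), 1 in each empty vector comparison at 1.5-fold (hsa-miR-146a-5p), 1 for mutant 1 with all miRNA reads, and 3, 2 and 3 with hsa-miR-16-5p.

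The epithelial to immune ratio was 332, 444, 453 and 450 by medians in the empty vector, wild-type, mutant 1 and mutant 2 libraries. The upstream start of hsa-miR-146b-3p fell to 33.3% among reads past the annotated 3p end, an alternative chosen after seeing the data. All 42 end shares recomputed within 2 nt of both annotated ends moved by less than their intervals. Depth limits hsa-miR-150-5p, hsa-miR-155-5p and hsa-miR-223-3p most.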
